A study of Mus musculus with 74 samples.

Results

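The genes of the proteasome were followed in mouse fat over a day. Members were the protein-coding mouse genes whose symbol begins with Psm, then a letter from a to g and a digit, with pseudogenes dropped. The rule took 50 of the 55487 genes in the RNA table. By role they were 7 alpha and 7 beta subunits of the 20S core, 2 core subunits known mainly from testis or thymus (Psma8 and Psmb11), 3 immunoproteasome subunits, 6 ATPases and 11 other subunits of the 19S cap, 3 chaperones of the cap's base, 6 activators or inhibitors and 4 chaperones of the core. The remaining member, Psmc3ip, shares letters with the ATPase gene Psmc3 but codes for a meiotic recombination factor. In all, 48 members had enough counts to be tested in every RNA comparison. Psma8 had a count in 8 of 35 RNA libraries and Psmb11 in 3, and neither was tested.

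The proteasome is the barrel-shaped protease that degrades proteins tagged with ubiquitin. Its 20S core carries the cutting sites on 3 beta subunits, and the 19S cap recognises ubiquitin, unfolds the substrate with its ring of ATPases and feeds it into the core. Under interferon, the standard cutting subunits Psmb6, Psmb7 and Psmb5 are replaced by Psmb9, Psmb10 and Psmb8, and the 11S activator of Psme1 and Psme2 can take the place of the cap. In brown fat, the transcription factor NFE2L1 is known to keep proteasome genes active during thermogenesis.

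Brown fat (BAT) and white fat of the inguinal depot (WAT) came from mice labelled Adiponectin-Cre:NuTRAP, in which the Adiponectin-driven Cre, active in adipocytes, switches on a GFP tag on ribosomes and a label on nuclei. RNA was purified with anti-GFP beads to take ribosome-bound RNA of Cre-positive cells, and open chromatin was read by ATAC-seq in sorted nuclei. Markers of other cells were also counted in this RNA, at higher levels in WAT. Each assay had 3 libraries per depot at ZT1, ZT5, ZT9, ZT13, ZT17 and ZT21 (hours of zeitgeber time), except BAT at ZT17 with 2 RNA libraries, for 17 BAT and 18 WAT RNA libraries. BMAL1, the clock transcription factor, was mapped by chromatin immunoprecipitation in inguinal WAT of C57BL6J mice at ZT4, in 2 libraries with an input. The series title speaks of time-restricted feeding and obesity, but the labels give no diet, sex, age or light schedule. ZT13 to ZT21 is called dark here by the usual convention. The labels do not say whether replicates are separate animals, so p-values measure the spread between libraries only.

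Libraries differed in ways that touch the results. Total counts were 4980153 to 46274478 in BAT and 1301518 to 6481177 in WAT. Ribosomal RNA loci took 66.0%, 60.7% and 53.0% of counts in the WAT libraries ZT5 replicate 3, ZT9 replicate 3 and ZT17 replicate 2. The mitochondrial share of counts ran between 0.126% and 2.25% in BAT libraries and between 0.685% and 27.6% in WAT libraries. Replicates of 1 time agreed at r = 0.962 to 0.991 in BAT and 0.828 to 0.968 in WAT, on log values across genes, which are not independent. Brown adipocyte markers summed to 6316 to 15509 CPM (counts scaled to library size) in BAT and 93.4 to 1237 CPM in WAT, so the depot labels held, although the brown marker Elovl3 was near 0 in both. Lymphocyte markers summed to 0.46 to 3.46 CPM in BAT and 93.3 to 609 CPM in WAT. Macrophage markers summed to 8.65 to 18.5 CPM in BAT and 60.2 to 381 CPM in WAT. Fibroblast markers summed to 8.15 to 67.4 CPM in BAT and 127 to 1103 CPM in WAT. The WAT values are therefore not those of adipocytes alone. In RNA pooled over cells, fewer cells of a type and less RNA per cell cannot be told apart.

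Promoter windows of 6 members are shown because later results return to them. They are RefSeq promoters on GRCm38 (mm10), 250 bases before to 50 bases after the annotated start, read in the gene's direction. Windows were at hand for 42 of the 50 members. Capitals mark matches on either strand to TGACNNNGC, the antioxidant response element core that NFE2L1 can bind, to CACGTG, the E-box that BMAL1 can bind, and to CCAAT. Psmc5, at chr11:106255935-106256234 on the plus strand, had the strongest daily rhythm of any member in WAT and holds none of the 3 motifs. Psmc6, at chr14:45329574-45329873 (plus), had the highest BMAL1 peak score among members. Psmb5, at chr14:54617946-54618245 (minus), and Psmd9, at chr5:123227940-123228239 (plus), were called higher in the dark in WAT and hold the NFE2L1 core. Psmb6, Psmc6, Psmd12 and Psme4 also hold that core and were not called higher in the dark in WAT. Psmc6 was rhythmic there. Psma4, at chr9:54950609-54950908 (plus), and Psme3, at chr11:101315963-101316262 (plus), hold an E-box inside a BMAL1 peak.
Psmc5: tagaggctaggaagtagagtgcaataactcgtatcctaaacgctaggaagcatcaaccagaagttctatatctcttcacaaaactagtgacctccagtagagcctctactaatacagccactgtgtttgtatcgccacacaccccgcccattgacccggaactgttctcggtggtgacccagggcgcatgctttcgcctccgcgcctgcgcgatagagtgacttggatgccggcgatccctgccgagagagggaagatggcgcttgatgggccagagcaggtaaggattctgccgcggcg
Psmc6: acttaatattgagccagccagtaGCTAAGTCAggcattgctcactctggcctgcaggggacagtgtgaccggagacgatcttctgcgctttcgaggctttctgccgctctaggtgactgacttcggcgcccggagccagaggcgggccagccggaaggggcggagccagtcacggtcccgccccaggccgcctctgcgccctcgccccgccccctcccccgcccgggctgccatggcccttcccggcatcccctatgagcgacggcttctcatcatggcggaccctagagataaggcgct
Psmb5: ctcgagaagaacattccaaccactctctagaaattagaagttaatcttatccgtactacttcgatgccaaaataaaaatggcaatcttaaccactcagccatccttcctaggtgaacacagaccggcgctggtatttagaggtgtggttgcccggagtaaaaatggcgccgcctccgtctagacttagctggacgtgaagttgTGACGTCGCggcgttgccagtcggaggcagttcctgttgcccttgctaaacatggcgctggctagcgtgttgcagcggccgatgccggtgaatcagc
Psmd9: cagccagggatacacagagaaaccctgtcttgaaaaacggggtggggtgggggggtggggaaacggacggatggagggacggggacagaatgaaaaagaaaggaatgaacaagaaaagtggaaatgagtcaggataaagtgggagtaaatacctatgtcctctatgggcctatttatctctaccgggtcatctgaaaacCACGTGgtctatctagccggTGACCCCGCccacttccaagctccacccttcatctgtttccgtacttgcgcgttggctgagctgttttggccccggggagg
Psma4: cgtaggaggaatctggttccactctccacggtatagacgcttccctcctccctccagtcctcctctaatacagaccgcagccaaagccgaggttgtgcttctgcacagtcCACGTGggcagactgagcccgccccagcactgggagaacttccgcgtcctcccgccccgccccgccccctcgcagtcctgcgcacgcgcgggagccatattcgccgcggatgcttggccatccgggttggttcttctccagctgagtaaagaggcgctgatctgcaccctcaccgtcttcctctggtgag
Psme3: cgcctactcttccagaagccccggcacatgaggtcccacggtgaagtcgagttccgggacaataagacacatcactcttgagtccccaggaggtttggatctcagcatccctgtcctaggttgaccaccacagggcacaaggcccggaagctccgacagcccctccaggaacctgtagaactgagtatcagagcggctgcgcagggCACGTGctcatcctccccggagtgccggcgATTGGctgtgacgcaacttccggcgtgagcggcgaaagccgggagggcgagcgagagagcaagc

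Among the 45 member windows (some genes have more than 1), TGACNNNGC was found in 6, or 13.3%, against 12.4% of all 32851 windows. Those were Psmb5, Psmb6, Psmc6, Psmd12, Psmd9 and Psme4, with the match beginning 47 bases before the start in Psmb5 and 9 before it in Psmb6. CACGTG was found in 4 member windows, or 8.89%, against 7.15% of all windows, in Psma4, Psmb10, Psmd9 and Psme3. CCAAT was found in 15, or 33.3%, against 37.4%. The shares in member windows were close to those of all promoters for the 3 motifs.

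The first question was how abundant each proteasome gene was in ribosome-bound RNA. Levels per gene length are given in the authors' TPM, transcript levels scaled by gene length and library. In BAT, the core beta subunit gene Psmb4 averaged 677 ± 263 TPM (SD, n = 17), the 11S activator gene Psme2 averaged 650 ± 178 TPM, and Psmb10 averaged 478 ± 169 TPM. In WAT the highest were Psmb4 at 1754 ± 880 TPM (SD, n = 18), Psme2 at 1397 ± 683 TPM and the cap subunit gene Psmd2 at 1027 ± 558 TPM. The SDs are spreads of each gene over libraries and times, so they do not measure differences between genes read in the same libraries. The lowest in BAT were the inhibitor gene Psmf1 at 1.38 ± 0.528 TPM, the base chaperone gene Psmd5 at 2.62 ± 2.11 TPM and Psmc3ip at 3.60 ± 1.26 TPM. In WAT they were Psmc3ip at 1.73 ± 1.22 TPM (n = 16), Psmf1 at 3.19 ± 1.97 TPM and Psmd5 at 3.22 ± 2.53 TPM. Leaving out Psmc3ip, which is no part of the proteasome, mean levels of the members tested thus ran between 1.38 and 677 TPM in BAT and between 3.19 and 1754 TPM in WAT.

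**Figure D1:**
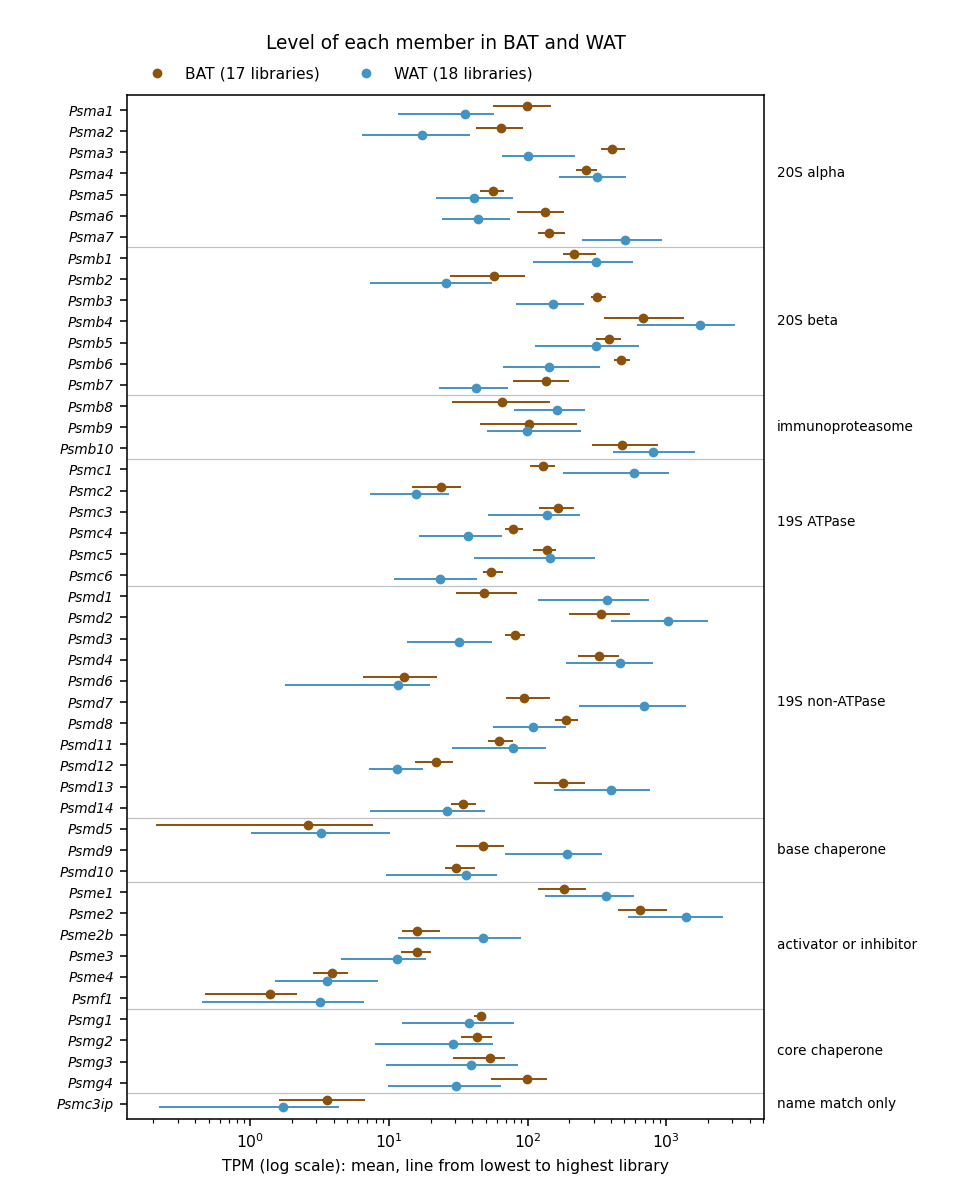
Mean TPM of each member in BAT (17 libraries) and WAT (18 libraries) on a log axis, with lines from the lowest to the highest library. Psmb4 and Psme2 stand at the top in both depots, at 677 and 650 TPM in BAT and 1754 and 1397 TPM in WAT, and Psmf1 and Psmd5 stand near the bottom.

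The cutting subunits were not at matched levels. Psmb6 averaged 473 ± 31.5 TPM in BAT and 143 ± 58.6 TPM in WAT, and its immune counterpart Psmb9 averaged 102 ± 58.5 TPM in BAT and 99.4 ± 48.3 TPM in WAT. Psmb5 averaged 387 ± 52.9 TPM in BAT and 311 ± 162 TPM in WAT, and its counterpart Psmb8 averaged 65.9 ± 34.9 TPM in BAT and 163 ± 52.7 TPM in WAT. Psmb7 averaged 136 ± 36.5 TPM in BAT and 42.3 ± 13.3 TPM in WAT. Its immune counterpart Psmb10 was above it in both depots, at 478 ± 169 TPM in BAT and 803 ± 326 TPM in WAT. For 3 members the deposited TPM and the counts gave unlike depot ratios: the log2 ratio of BAT over WAT was -1.37 by TPM and -0.04 by CPM for Psmb4, -2.19 and -0.94 for Psmc1, and -2.02 and -0.77 for Psmd9. Their levels between depots are therefore given from the counts below.

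The next question was how the depots differed once sampling time was taken into account. In BAT, most genes of the 20S core were higher than in WAT. Genes of the 19S cap went both ways, and Psme1 and Psme2 of the 11S activator were lower. With edgeR's quasi-likelihood test and Benjamini-Hochberg adjustment at 0.05, 40 of 48 members differed, 26 higher and 14 lower in BAT. Over all 10999 genes tested, 75.2% differed, 38.4% higher and 36.8% lower, so the members' share that differed was close to that of all genes. The median log2 fold change of BAT over WAT was 0.42 for the members and 0.04 for all genes. In 9 members every BAT library lay above every WAT library, as it did in 11.3% of genes tested. In 0 members did every BAT library lie below every WAT library, as it did in 6.51% of genes. A fold of at least 2 was met by 13 higher and 6 lower members, 19 of 48, against 47.3% of all genes.

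In the 20S core, 5 of 7 alpha and 5 of 7 beta genes were higher in BAT. Psmb7 ran from 122 through a median of 177 to 198 CPM in BAT and from 29.8 through 46.1 to 69.8 CPM in WAT. The lowest BAT library was above the highest WAT library, and the log2 difference was 1.83 ± 0.10 (SE; edgeR, adjusted p = 1.43e-18). Psma3 ran from 190 through 235 to 281 CPM in BAT and from 44.4 through 60.3 to 88.8 CPM in WAT, again with no overlap (1.88 ± 0.10; adjusted p = 2.62e-18 by edgeR). Psma2 (1.98 ± 0.12), Psma1 (1.65 ± 0.10), Psma6 (1.63 ± 0.10) and Psmb6 (1.94 ± 0.13) were also separated without overlap. All are structural or cutting parts of the core ring. Psma7, an alpha subunit, went the other way, with 88.7, 127 and 251 CPM as the lowest, median and highest in BAT and 142, 443 and 1137 CPM in WAT. Its ranges overlapped and its log2 difference was -1.63 ± 0.20 (edgeR, adjusted p = 2.67e-09). Psma4, Psmb1 and Psmb4 did not pass, at -0.05, -0.26 and 0.13.

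In the 19S cap, 4 of 6 ATPase genes were higher and 1 lower in BAT, and the 11 other subunits split into 5 higher and 5 lower. Psmd1, a large scaffold of the cap's base, had 88.2, 158 and 410 CPM as lowest, median and highest in BAT and 269, 994 and 3532 CPM in WAT (-2.65 ± 0.24; edgeR, adjusted p = 2.60e-12). Psmd7, a lid subunit, had 99.9, 156 and 351 CPM in BAT and 259, 893 and 2866 CPM in WAT (-2.54 ± 0.25; edgeR, adjusted p = 1.19e-11). The medians of both genes were far lower in BAT, but the highest BAT libraries overlapped the lowest WAT libraries. Psmd3, another cap subunit, ran the opposite way without overlap, with 139, 210 and 297 CPM in BAT and 44.4, 65.3 and 118 CPM in WAT (1.57 ± 0.12; edgeR, adjusted p = 6.21e-14). Psmd12, a lid subunit, was likewise separated (1.13 ± 0.09). Genes of 1 particle thus differed in opposite directions between the depots. All 4 core chaperone genes were higher in BAT, led by Psmg4 (1.82 ± 0.13), and 2 of 3 base chaperone genes were lower.

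Of the immunoproteasome genes 1 of 3 was lower in BAT and 0 were higher, and of the activators and inhibitors 4 of 6 were lower and 2 higher. Psmb8 had 46.8, 71.7 and 194 CPM as lowest, median and highest in BAT and 107, 165 and 442 CPM in WAT. The ranges overlapped and the log2 difference was -1.10 ± 0.21 (edgeR, adjusted p = 1.23e-05). The partner cutting subunits Psmb10 (-0.26 ± 0.18, adjusted p = 0.188) and Psmb9 (0.14 ± 0.17, adjusted p = 0.437) did not pass the same edgeR test. Their standard counterparts Psmb7 (1.83) and Psmb6 (1.94) were higher in BAT, as was Psmb5, the counterpart of Psmb8 (0.90 ± 0.17). Psme1 (-0.87 ± 0.15), Psme2 (-0.73 ± 0.19) and Psme2b, a near copy of Psme2 (-1.26 ± 0.18), were lower in BAT, and the nuclear activator Psme3 was higher (0.76 ± 0.09). Counts of Psme2 and of Psme2b were not whole in 34 of 35 libraries, so reads were shared between similar genes. The values of Psme2 and Psme2b may therefore not be independent. Counts were also not whole for Psmd1 in 35 libraries, Psma4 in 34, Psma5 in 32, Psmb5 and Psmd2 in 31 and Psma3 in 30. Psmb3 followed with 27, Psmc1 with 23, Psmb1 with 22, Psma2 with 19, Psmd11 with 8, Psme1 with 7 and Psmd13 with 1. Psme4, an activator known from DNA repair and spermatogenesis, was the member nearest the threshold among those called (0.30 ± 0.13; edgeR, adjusted p = 0.0377), and it was called in 19 of 35 fits that left out 1 library. Of 15 antigen processing and interferon genes, 12 were lower and 1 higher in BAT, including H2-K1 at -1.55 and Tap1 at -1.44. The lymphocyte markers tested were lower in BAT in 6 of 6, the macrophage markers in 5 of 5, the fibroblast markers in 5 of 5 (median -4.26) and the endothelial markers in 3 of 3 (median -3.30). The part of these cells in the depot differences of the members was not tested.

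**Figure D2:**
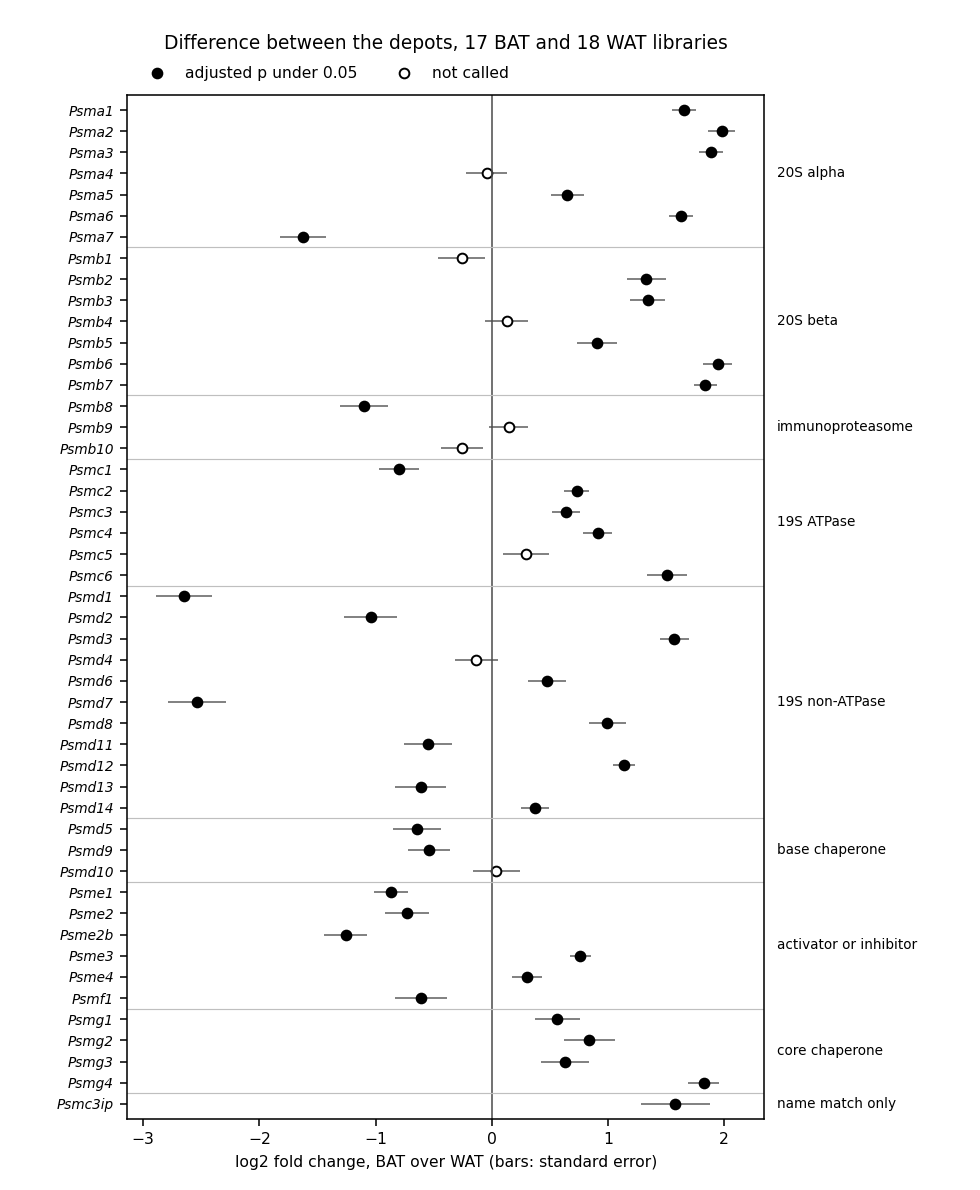
Log2 fold change of BAT over WAT for the 48 members tested, by role, with SE bars, and filled points for members past the adjusted p threshold of 0.05. Core genes such as Psmb7 (1.83) and Psma3 (1.88) lie to the right, and Psmd1 (-2.65) and Psmd7 (-2.54) lie farthest to the left.

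The study sampled around the clock, so each gene was fitted with a 24 h cosine and sine. In WAT, 22 of 48 members were rhythmic, and every one of them peaked late at night, from ZT17.8 to ZT20.6. Of all 12703 genes tested in WAT, 9.90% were rhythmic. Of the 22, 12 peaked nearest ZT17 and 10 nearest ZT21, against 21.6% and 47.3% of all rhythmic genes. Called or not, 33 of 48 members (68.8%) had their fitted peak between ZT17 and ZT22, against 27.2% of all genes tested. The median peak-to-trough difference was 1.23 (log2) for members and 0.98 for all genes. By role, 1 of 7 alpha, 3 of 7 beta, 1 of 3 immunoproteasome, 3 of 6 ATPase, 7 of 11 other cap, 2 of 3 base chaperone, 2 of 6 activator and 3 of 4 core chaperone genes were called. With DESeq2 size factors in place of TMM scaling, 11 members were rhythmic in WAT, against 8.61% of all genes. The count also moved with single WAT libraries. It was 5 without ZT17 replicate 3, 6 without any 1 of ZT5 replicate 1, ZT5 replicate 2, ZT9 replicate 2, ZT17 replicate 1, ZT21 replicate 1 or ZT21 replicate 3, and 8 without ZT9 replicate 1. It was 10 without ZT13 replicate 3, 11 without ZT1 replicate 2, and 13 without any 1 of ZT1 replicate 1, ZT5 replicate 3, ZT17 replicate 2 or ZT21 replicate 2. Psmc5, Psmg1 and Psme2b passed in all settings tried, these included. Psme2b shares reads with similar genes, so its rhythm may not be independent of that of Psme2.

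Psmc5, an ATPase of the cap, had the largest rhythm. In WAT its libraries read 181, 267 and 157 CPM at ZT1, 105, 59.5 and 80.9 CPM at ZT5, 122, 78.2 and 196 CPM at ZT9, 103, 77.3 and 162 CPM at ZT13, 395, 225 and 382 CPM at ZT17, and 367, 196 and 462 CPM at ZT21. All ZT17 and ZT21 libraries lay above all of ZT5, and replicate 2 was the lowest of its time at both ZT17 and ZT21. The peak-to-trough difference was 2.04 ± 0.37 with a peak at ZT19.6 (edgeR, adjusted p = 0.00526). Psmg1, a chaperone that starts the assembly of the alpha ring, read 31.7, 36.7 and 22.8 CPM at ZT1, 25.8, 22.2 and 18.5 CPM at ZT5, 23.1, 15.2 and 46.8 CPM at ZT9, 16.5 to 32.7 CPM at ZT13, 75.3, 40.8 and 99.3 CPM at ZT17, and 102, 42.6 and 73.2 CPM at ZT21. Outside ZT17 and ZT21, only ZT9 replicate 3, a library rich in ribosomal RNA, reached their range. The difference was 1.90 ± 0.37 with a peak at ZT19.2 (edgeR, adjusted p = 0.00808).

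Psmb8, the immune counterpart of Psmb5, read 123 to 146 CPM at ZT1, 149 to 159 CPM at ZT5, 132 to 181 CPM at ZT9 and 107 to 201 CPM at ZT13 in WAT. It read 395, 278 and 442 CPM at ZT17 and 352, 252 and 309 CPM at ZT21, so that all 6 late-night libraries lay above the other 12. The peak-to-trough difference was 1.44 ± 0.28 with a peak at ZT18.3 (edgeR, adjusted p = 0.00862). The 2 other immune subunits did not pass, Psmb10 at 1.26 (edgeR, adjusted p = 0.0843) and Psmb9 at 0.18 (0.901). Lymphocyte marker levels are given beside Psmb8, since lymphocytes express it. Their sum had a median of 131 CPM in dark WAT libraries, with a range of 93.3 to 513 CPM, and 404 CPM in light ones, with a range of 153 to 609 CPM, and 4 of 11 markers tested were lower in the dark and 0 higher. None of the 15 antigen processing and interferon genes was rhythmic in WAT by edgeR, with 4 at an unadjusted p under 0.05.

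Psme2b (1.88 ± 0.37, ZT18.0, adjusted p = 0.00891), Psmc6 (1.54 ± 0.31, ZT20.2, 0.0103) and Psmd14, the cap's deubiquitinase (1.16 ± 0.26, ZT18.4, 0.0165), followed by the same edgeR test. Psmg2, the partner of Psmg1 (1.81 ± 0.43), Psmd2, a scaffold of the base (1.76 ± 0.42), Psmb3 (1.22 ± 0.29) and Psmb5 (1.58 ± 0.38) completed the 10 members of smallest adjusted p. Psmd4, the cap's ubiquitin receptor, was the last to pass (1.38 ± 0.38; edgeR, adjusted p = 0.0495), and the beta gene Psmb1 fell just outside (1.53, adjusted p = 0.0504). The standard cutting subunits Psmb6 (0.80, adjusted p = 0.141) and Psmb7 (0.09, adjusted p = 0.965) did not pass by edgeR. Neither did Psme1 (0.96, adjusted p = 0.184), Psme3 (0.62, 0.231) or Psme4 (0.05, 0.994), while Psme2 did (1.52, 0.0366). Psmb7 read 60.4, 69.8 and 55.6 CPM at ZT5 and 45.7, 57.7 and 47.8 CPM at ZT17 in WAT, with overlapping ranges.

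**Figure D3:**
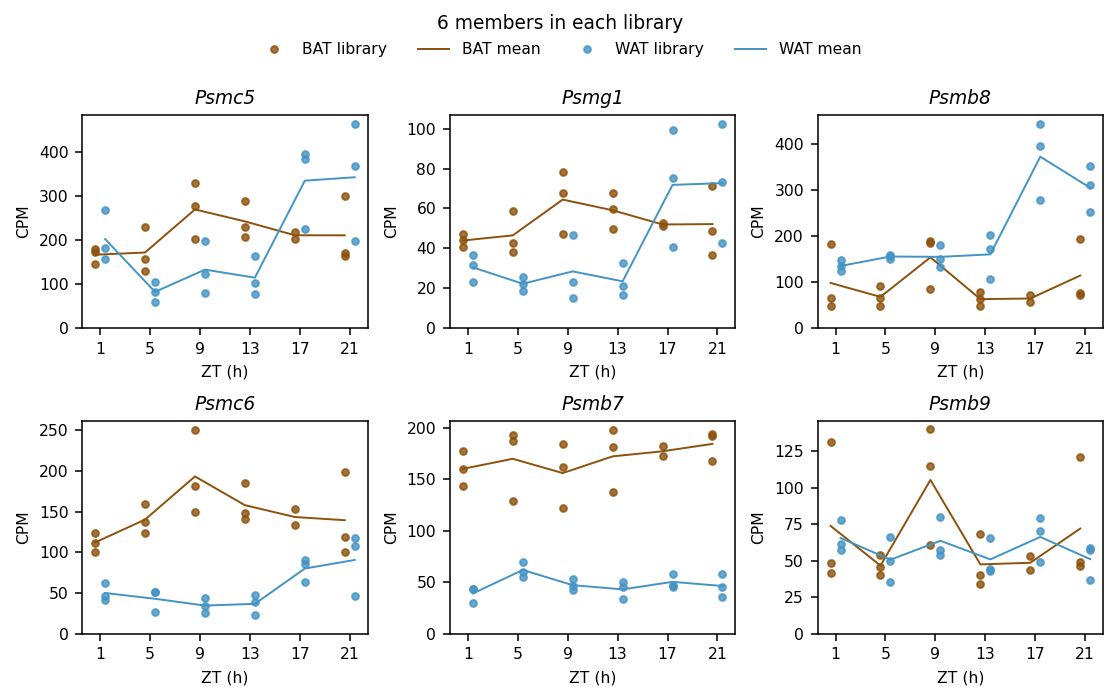
CPM of each library against zeitgeber time for Psmc5, Psmg1, Psmb8, Psmc6, Psmb7 and Psmb9 in BAT and WAT, with lines through the means. In WAT, Psmb8 reads 252 to 442 CPM at ZT17 and ZT21 against 107 to 201 CPM at the other times, and Psmb7 shows no such step.

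The WAT rhythm ran partly alongside properties of the libraries. Summed over members, the level in WAT was 4485 to 7292 CPM in the libraries of ZT1 and ZT5, 6147, 5511 and 14784 CPM at ZT9 and 5625, 5024 and 10200 CPM at ZT13. It was 17106, 10856 and 21594 CPM at ZT17 and 18008, 12612 and 17071 CPM at ZT21. Of the 6 libraries of ZT17 and ZT21, all but ZT17 replicate 2 and ZT21 replicate 2 lay above every library of the other times. The mitochondrial share of counts was 27.6%, 22.6% and 9.85% at ZT13, 4.96%, 9.11% and 4.10% at ZT17 and 2.24%, 9.43% and 0.685% at ZT21. ZT9 replicate 3, high in members at 14784 CPM, had a mitochondrial share of 2.52%. Other libraries did not follow this pattern: ZT5 replicate 3 had 4.29% with members at 7292 CPM, and ZT1 replicate 2 had 9.33% with 6739 CPM. With the log2 mitochondrial share as a covariate, 7 members were rhythmic in WAT, against 4.84% of all genes. With mitochondrial genes and ribosomal RNA loci left out before scaling, 12 were, against 8.38% of all genes, and with the 3 libraries rich in ribosomal RNA left out, 29 were, against 19.7%. The share of all genes called thus moved in the same direction as the members' count in these 3 fits. Of the markers of other cells, 5 of 11 lymphocyte, 0 of 8 macrophage and 0 of 6 fibroblast genes were rhythmic in WAT. At an unadjusted p under 0.05 by edgeR these were 9, 1 and 4, with median peak-to-trough differences of 2.24, 0.97 and 1.74. Of the 8 adipocyte markers 1 was rhythmic, and 5 had an unadjusted p under 0.05 (median difference 0.87). Their sum in WAT was 10790 to 15133 CPM at ZT5, 35681 to 75151 CPM at ZT17 and ZT21 and 40955 CPM in ZT9 replicate 3. It was 25715 to 56949 CPM at ZT1, where members summed to 4485 to 6739 CPM. The part of the mitochondrial share in the rhythm was not tested beyond these fits. The part of the mix of cells in each library was not tested.

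**Figure D4:**
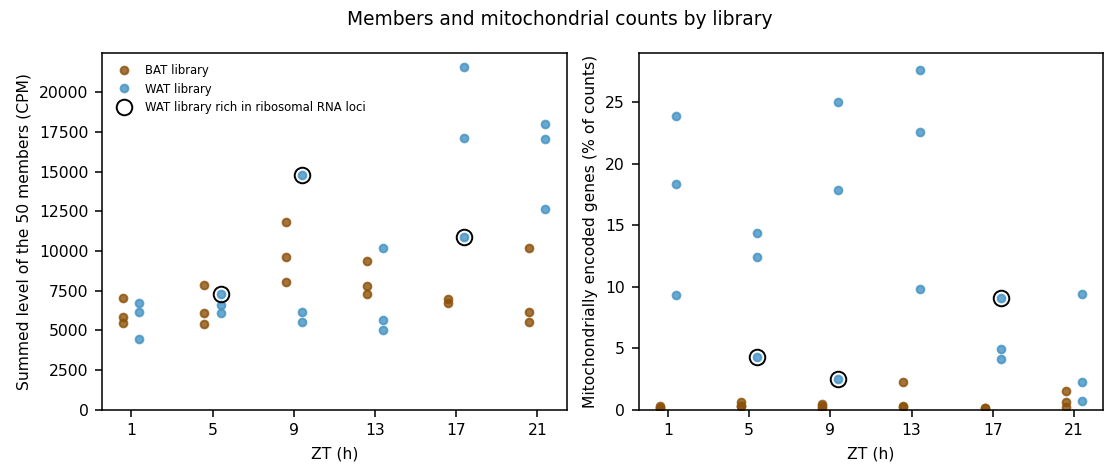
Summed CPM of the members (left) and mitochondrial share of counts in percent (right) per library against zeitgeber time in BAT and WAT, with the 3 WAT libraries rich in ribosomal RNA ringed. In WAT the sum is 10856 to 21594 CPM at ZT17 and ZT21, where the mitochondrial share is 0.685% to 9.43%.

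In BAT, 2 of 48 members were rhythmic, against 9.17% of the 12394 genes tested. Both peaked near the switch from day to night. Psmd4 read 269, 224 and 230 CPM at ZT1, 262, 231 and 335 CPM at ZT5, 390, 453 and 530 CPM at ZT9, 299, 337 and 442 CPM at ZT13, 249 and 232 CPM at ZT17, and 231, 365 and 185 CPM at ZT21. The ZT9 libraries and ZT13 replicate 3 were the 4 highest, and ZT21 replicate 2 stood above the rest of ZT17 and ZT21. The peak-to-trough difference was 0.82 ± 0.19 with a peak at ZT10.1 (edgeR, adjusted p = 0.0300). Psmc1, an ATPase of the cap, read 147 to 175 CPM at ZT1, 205, 276 and 311 CPM at ZT9, 227, 270 and 322 CPM at ZT13 and 142 to 271 CPM at ZT21 (0.74 ± 0.17, ZT12.3; edgeR, adjusted p = 0.0315). With time as a factor neither gene passed, and on the deposited TPM Psmc1 did not pass and turned to the opposite phase, at 0.125. Psmb3 fell just outside (0.58, adjusted p = 0.0698). The median peak-to-trough difference was 0.52 for members and 0.49 for all genes, and 25 members had an unadjusted p under 0.05. Of 48 members, 25 had a fitted peak nearest ZT13 and 9 nearest ZT9. The count was 31 without BAT ZT21 replicate 2, where members summed to 10174 CPM against 6157 and 5553 CPM in its replicates. It was 0 without any 1 of ZT1 replicate 2, ZT1 replicate 3, ZT9 replicate 2, ZT9 replicate 3, ZT13 replicate 3 or ZT21 replicate 1, and 1 without ZT13 replicate 2 or ZT21 replicate 3.

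In BAT the immune subunits were uneven between replicates of 1 time. Psmb8 read 181, 64.5 and 46.8 CPM at ZT1, 185, 85.5 and 189 CPM at ZT9 and 70.6, 194 and 76.7 CPM at ZT21, and stayed at 47.4 to 90.4 CPM at the other times. Psmb9 was high in the same 4 libraries, with 131 CPM in ZT1 replicate 1, 140 and 115 CPM in ZT9 replicates 1 and 3 and 121 CPM in ZT21 replicate 2, and 34.1 to 68.0 CPM in the other 13. Psmb10 read 293, 307, 383 and 450 CPM in those 4. The antigen processing and interferon genes summed to 807, 894, 610 and 566 CPM in the same 4 libraries. Over all BAT libraries that sum ran from 310 to 894 CPM. In ZT21 replicate 3 the sum was 735 CPM, with Psmb8 at 76.7 CPM and Psmb9 at 46.1 CPM. Neither Psmb8 (0.44, adjusted p = 0.798), Psmb9 (0.44, 0.766) nor Psmb10 (0.25, 0.826) was rhythmic in BAT by edgeR.

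**Figure D5:**
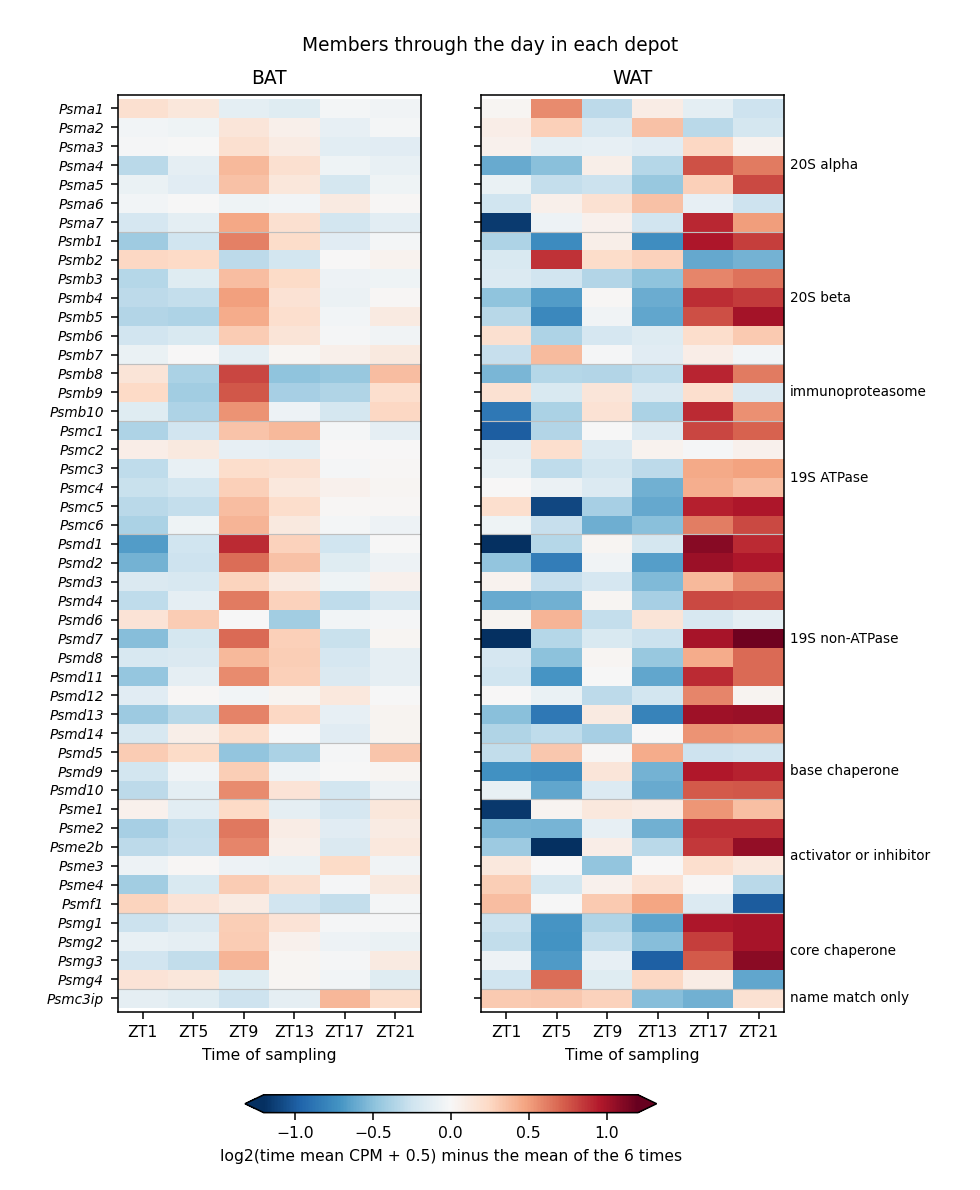
Level of each member at each time as the log2 of the mean CPM plus 0.5, minus the mean of the 6 times, by role, in BAT and in WAT. The WAT panel is highest at ZT17 and ZT21 in most rows, the 22 rhythmic members among them, and the BAT panel is highest around ZT9 and ZT13 with smaller differences.

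The depots' rhythms were then compared directly, by the interaction of depot with the 24 h terms. The rhythm differed in 16 of 48 members, against 12.9% of the 10999 genes tested, and the median peak-to-trough of the difference was 1.34 for members and 1.06 for all genes. Of these 16, 15 were also rhythmic in WAT. The fitted differences and peaks per depot that follow are from the separate fit of each depot. Psmc6 differed by 1.85 ± 0.37 (edgeR, adjusted p = 0.00883), with 0.55 in BAT at a fitted peak of ZT11.1 and 1.54 in WAT at ZT20.2. At the sampled time nearest each peak, its BAT libraries read 141, 148 and 185 CPM at ZT13, and its WAT libraries read 108, 46.8 and 118 CPM at ZT21. Psmc5 differed by 2.10 ± 0.43 (adjusted p = 0.00932 by edgeR), with 0.58 in BAT at ZT12.8 and 2.04 in WAT at ZT19.6. Psmg1 differed by 1.92 ± 0.43 (0.44 in BAT, 1.90 in WAT) and Psmd14 by 1.24 ± 0.28 (0.25 in BAT, 1.16 in WAT). Psmb2, a beta subunit, was the exception that was not rhythmic in WAT: its fitted peak was ZT0.93 in BAT and ZT7.26 in WAT, and it differed by 1.55 ± 0.41. Psmb5 was the last to pass (1.54 ± 0.44; edgeR, adjusted p = 0.0459), and Psmg3 fell outside (1.72, 0.0517). Psma5, Psmb3, Psmc5, Psmc6, Psmd14 and Psmg1 passed in all 42 settings tried. The count was 29 without BAT ZT21 replicate 2 and 31 without WAT ZT9 replicate 3. It was 6 without BAT ZT9 replicate 3, 7 without ZT21 replicate 3 of either depot, 8 without WAT ZT21 replicate 1, 9 without BAT ZT9 replicate 2 or BAT ZT21 replicate 1, and 10 without WAT ZT9 replicate 2.

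Dark and light were compared as means over 3 times each. In WAT, 17 of 48 members were higher in the dark and 0 were lower, against 4.34% of all genes higher and 3.16% lower, 7.50% in all. The median log2 difference of dark over light was 0.64 for members and -0.10 for all genes. Psmd7 had 537, 1787 and 2866 CPM as lowest, median and highest in dark WAT libraries and 259, 595 and 1653 CPM in light ones (1.31 ± 0.27; edgeR, adjusted p = 0.00927). Psmb8 had 107, 278 and 442 CPM in the dark and 123, 149 and 181 CPM in the light (0.88 ± 0.17; edgeR, adjusted p = 0.00767). The ranges of dark and light overlapped for both genes, and they overlapped for every member in both depots. The ZT13 libraries of Psmd7 lay within its light range. Those of Psmb8 read 107, 171 and 201 CPM, from below to above its light range. Psme2b (1.13 ± 0.21; adjusted p = 0.00548 by edgeR), whose reads are shared with similar genes, had the smallest adjusted p. Psmd1 (1.22 ± 0.28), Psmd14 (0.76 ± 0.19), Psmc1 (0.94 ± 0.24), Psmc5 (0.91 ± 0.23), Psmg1 (0.94 ± 0.25), Psmd9 (0.93 ± 0.25) and Psmd2 (0.94 ± 0.26) followed.

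By role, the members higher in dark WAT were 2 beta, 2 immunoproteasome, 2 ATPase, 6 other cap, 1 base chaperone, 3 activator and 1 core chaperone genes, with 0 of 7 alpha genes. Of the cutting subunits, Psmb5 (0.81 ± 0.24), Psmb8 and Psmb10 (0.75 ± 0.22; edgeR, adjusted p = 0.0404) were higher in the dark, and Psmb6 (0.30), Psmb7 (-0.01) and Psmb9 (-0.04) did not pass. Of the activators, Psme1 (0.72 ± 0.20) and Psme2 (0.84 ± 0.24) were higher, and Psme3 (0.28) and Psme4 (-0.05) did not pass. Psmb4 was the last called (0.80 ± 0.25; edgeR, adjusted p = 0.0494), and Psma7 fell outside (0.83, 0.0523). Of 18 fits that each left out 1 WAT library, Psmd7, Psmb8 and Psme2b passed in all. The count of members was 28 without ZT9 replicate 3, 10 without ZT5 replicate 3, 9 without ZT1 replicate 1, and 6 without ZT5 replicate 1 or ZT21 replicate 3. It was 5 without any 1 of ZT9 replicate 2, ZT13 replicate 3, ZT17 replicate 1 or ZT21 replicate 1, 4 without ZT5 replicate 2 or ZT17 replicate 3, and 3 without ZT1 replicate 3 or ZT9 replicate 1. With the mitochondrial share as a covariate it was 7, against 2.39% of all genes. On the deposited TPM it was 3, against 3.41% of all genes, and with limma's voom and sample weights it was 32, against 29.0%. Without the 3 libraries rich in ribosomal RNA it was 28, against 20.9%. The mitochondrial share had a median of 9.11% in dark WAT libraries, with a range of 0.685% to 27.6%, and 14.3% in light ones, with a range of 2.52% to 25.02%. Marker genes of other cells also moved in this comparison. In the dark, 4 of 6 fibroblast markers were lower (median -1.04), as were 4 of 11 lymphocyte markers (median -1.31) and 1 of 5 skeletal muscle markers (median -0.91). Of the adipocyte markers 1 of 8 was higher (median 0.38), and of the brown adipocyte markers 0 of 6 passed (median 0.74). The part of these cells in the dark over light differences of the members was not tested.

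In BAT, 0 of 48 members differed between dark and light by edgeR, with 3 at an unadjusted p under 0.05, and DESeq2 and limma also called 0. Of all genes tested in BAT, 1.30% differed, 0.855% higher and 0.444% lower in the dark. The median log2 difference was 0.00 for members and -0.01 for all genes.

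The regulators and cofactors of the proteasome, which are not members, were counted from a list of 31 genes, 30 of them tested. In WAT, 13 were rhythmic, against 9.90% of all genes tested. Between dark and light WAT 5 differed, 4 higher and 1 lower in the dark, against 7.50% of all genes. Adrm1, the other ubiquitin receptor of the cap (1.91, ZT18.7), Pomp, the chaperone that matures the core (1.87, ZT19.4), Rps27a, a ubiquitin gene (1.85, ZT19.1), and Ecpas, a clamp between core and cap (1.39, ZT19.9), peaked with the members. Uba1, the first enzyme of ubiquitin transfer (1.83, ZT7.9), Ubb, another ubiquitin gene (1.54, ZT7.5), and Bag6, a chaperone (1.37, ZT8.3), peaked by day. In BAT 1 of the 30 was rhythmic, Uchl5, a deubiquitinase of the cap (0.73, ZT9.9), against 9.17% of all genes tested. Nfe2l1 stood at a mean of 372 CPM in BAT libraries and 1191 CPM in WAT libraries (-1.58 ± 0.19 in log2), and it was higher in dark than in light WAT (0.84 ± 0.26; edgeR, adjusted p = 0.0451).

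Chromatin at the members' promoters was read from the ATAC tables, as regions within 1000 bp of a start that the authors annotated to a member. BAT had 45 such regions for 40 members and WAT had 41 for 39 members. Psmc5, whose RNA was the most rhythmic in WAT, had none in either depot, nor did Psma2, Psmc1, Psmg2, Psmd13, Psmd10, Psmb10, Psma8 and Psme2b. In BAT, 6 of 45 regions were rhythmic by edgeR, against 13.5% of all regions near a start. The median peak-to-trough difference was 0.163 for the member regions and 0.183 for all regions near a start. The largest was a weak region of Psma6 at chr12:55384926-55385076 (mm10), with 5.33, 5.91 and 5.83 CPM at ZT1, 3.45, 4.34 and 4.37 CPM at ZT5, 7.78, 7.05 and 9.76 CPM at ZT9, between 10.99 and 11.5 CPM at ZT13, 12.1, 13.4 and 9.86 CPM at ZT17, and 6.31, 5.20 and 5.95 CPM at ZT21. Its 3 replicates were close at most times, and its difference was 1.45 ± 0.18 with a peak at ZT14.6 (edgeR, adjusted p = 1.2e-04). The stronger Psma6 region at chr12:55398693-55398843, with a mean of 51.0 CPM, did not pass (0.14, adjusted p = 0.281 by edgeR), and neither did Psma6 RNA in BAT (0.07, adjusted p = 0.916). Psmd3, Psmd6, Psmd8, Psmb11 and Psmb1 had the other 5 regions, with differences of 0.19 to 0.62.

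In WAT, 3 of 41 member regions were rhythmic, against 6.32% of all regions near a start, with a median difference of 0.121 for the members and 0.171 for all. The region of Psmb8 at chr17:34198243-34198393 averaged 20.1, 26.1, 28.9, 24.98, 19.98 and 20.9 CPM at ZT1, ZT5, ZT9, ZT13, ZT17 and ZT21 (0.55 ± 0.14; edgeR, adjusted p = 0.0272). It peaked at ZT8.6, by day, while Psmb8 RNA peaked at ZT18.3. Another Psmb8 region at chr17:34197612-34197762 did not pass (0.15, adjusted p = 0.71 by edgeR). Psmb2 peaked at ZT4.7 (0.34 ± 0.09, adjusted p = 0.0373) and Psme1 at ZT21.3 (0.47 ± 0.14, adjusted p = 0.0487) by the same edgeR test. The WAT count was 0 without ZT21 replicate 1 and 1 without any 1 of ZT1 replicate 3, ZT5 replicate 1, ZT5 replicate 3, ZT13 replicate 1, ZT17 replicate 2 or ZT21 replicate 2 of the ATAC libraries.

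BMAL1 peaks were deposited as 1 list of 10368 peaks called over both libraries, with a tag signal for each library that was normalized by the authors. A peak within 1000 bp of a start was found for 27 of 48 members, or 56.2%, against 41.3% of the genes tested in WAT. Among genes with a WAT ATAC region at the promoter, 27 of 39 members and 58.8% of all genes had one. The members' peaks had the authors' scores of 4.45 to 9.59 and a median of 6.68, against a median of 6.68 for all peaks near a start and 6.16 for the whole list. The highest score in the list was 201.3, near Nr1d1, a clock gene, and Per1, a clock gene, and Dbp, a clock output gene, had 130.6 and 127.2. Psmc6 had 9.59 at chr14:45329563-45329775, over the promoter window printed above, with its NFE2L1 core inside the peak and a tag signal of 11.31 and 7.52 in the 2 libraries. The libraries were less alike at Psmd3, with 3.77 and 9.91, and at Psmb2, with 9.6 and 3.76. Psme3 had 8.9 and Psma4 had 8.73, each with the E-box of the printed window inside the peak. The peak of Psmd9, at 4.45, lay outside its window and its E-box. Of the 22 members rhythmic in WAT, 12 had a peak, and of the other 26 members tested, 15 had one. Psmc5 had none.

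The authors' deposited table of JTK_CYCLE rhythm tests held all 48 members in each depot, and 0 had a q-value under 0.05. The share of all genes under it was 4.33% in BAT and 0.136% in WAT. The lowest q-value in the authors' deposited table was 0.0647 for Psmg4 in BAT and 0.0902 for Psmd14 in WAT, and the median over members was 0.622 in BAT and 0.288 in WAT. For the ATAC regions near members' starts, the authors' deposited table had 4 of 45 in BAT under 0.05, against 9.10% of all BAT regions, with Psma6 lowest at 0.00583 for the region described above. In WAT it had 0 of 41, against 8.59% of all WAT regions, with a lowest q-value of 0.103 for Psmb8 and Psmb2.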

How the data were processed

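Ribosome-bound RNA of 17 BAT and 18 WAT libraries, ATAC-seq of 18 libraries per depot and a BMAL1 peak list were analysed. Reads were processed by the authors with STAR 2.7.5, RSEM 1.3.0, Bowtie2 2.4.1, HOMER, DESeq2 and limma against mm10, per the submitters' processing notes. Whether counting used strand is a point not given in the sources used here. The RNA table holds the authors' expected counts per gene, which were rounded for testing; where they are not whole, as for 15 members, reads were shared between similar genes. Levels per length are the TPM the authors deposited. ATAC regions carry raw tag counts that the authors deposited, and their JTK_CYCLE tables give q-values (p-values adjusted by the authors). The BMAL1 list carries the authors' peak score and a tag signal normalized per library, per the file headers, on a peak set pooled over 2 libraries.

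Symbols were matched for 55394 of 55487 gene IDs. Genes passing edgeR's filterByExpr were fitted with edgeR 4.0.16 (R 4.3.3), TMM scaling and the quasi-likelihood test, with Benjamini-Hochberg adjustment over all genes or regions tested and a threshold of 0.05. Rhythm is the joint test of a 24 h cosine and sine, given as the fitted peak-to-trough difference in log2. The depot test held time as a factor. CPM printed are TMM-scaled. The scripts were tested on simulated data. Alternatives were size factors and tests of DESeq2 1.42.0, limma 3.58.1 (voom with sample weights, or log2 of TPM plus 1), no filter, time as a factor, a replicate block, and libraries, mitochondrial or ribosomal RNA genes left out. The members and gene lists were chosen with earlier results of these data known. Named with values were up to 10 called members of smallest adjusted p per comparison, the 3 pairs of standard and immune cutting subunits, the activators Psme1 to Psme4, the 3 highest and lowest by TPM, and the members at the threshold. In the BAT TPM table, 1 column that matches no listed sample was not used.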

Additional observations from a re-analysis of the deposited data

Results flagged for a closer look

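The 24 h rhythm differed between BAT and WAT by the interaction test in 16 members. The peak-to-trough of the difference, in log2, was 2.10 for Psmc5, 2.03 for Psmd2, 1.92 for Psmg1, 1.92 for Psmg2, 1.87 for Psme2b, 1.85 for Psmc6, 1.84 for Psmd10, 1.77 for Psmd4 and 1.77 for Psmd11. It was 1.55 for Psmb2, 1.54 for Psmb5, 1.49 for Psmb3, 1.40 for Psma5, 1.24 for Psmd14, 1.11 for Psmd3 and 1.04 for Psmc3. The adjusted p-values and the single libraries that moved this count are given in the comparison of rhythms above.

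A single library stood apart from the rest of its depot and phase in 11 of 88 groups examined, over 22 members. Chance flags about 1 in 20 such groups. The members were read in the same libraries, so the 11 flags are not separate events. The measure is the gap to the nearest other library over the range of the group, on log2 of CPM plus 1. Among the dark BAT libraries the gap was 0.657 of the range for Psmb8, 0.563 for Psme2b, 0.560 for Psmb10 and 0.539 for Psmb7. Among the light WAT libraries it was 0.625 for Psmd4, 0.598 for Psme2, 0.546 for Psmb10, 0.539 for Psme4, 0.532 for Psmb4, 0.531 for Psmd2 and 0.513 for Psmd9. For Psmb8 and Psmb10 in dark BAT the library apart was ZT21 replicate 2. For Psmd4, Psmb10, Psmb4 and Psmd2 in light WAT the library was ZT9 replicate 3, rich in ribosomal RNA.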

How the results depend on the processing

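The depot result was the steadiest: 39 to 40 members differed without any 1 library, 25 to 26 higher and 14 lower in BAT. Of the alternatives run only a required fold of at least 2 moved it, to 19 members, 13 higher and 6 lower. Over all genes 47.3% passed with that fold. In WAT the rhythm count of 22 was 11 with DESeq2 size factors, 12 without mitochondrial genes and ribosomal RNA loci, 7 with the mitochondrial share as a covariate (chosen after seeing the data), and 5 to 31 without 1 library. The WAT dark over light count of 17 was 32 with voom and 28 without the 3 libraries rich in ribosomal RNA. It was 28 without those and the library with the fewest counts (against 19.8% of all genes), 7 with the mitochondrial covariate and 3 on the deposited TPM. These last 3 settings were chosen after seeing the data. Without 1 library it was 3 to 28. In BAT the rhythm count of 2 was 6 with no filter, 0 with time as a factor, 9 with DESeq2, 31 with voom and 8 on TPM (chosen after seeing the data). The shares of all genes called were 7.11%, 4.98%, 19.8%, 32.8% and 24.1%, in that order. Without 1 library the count was 0 to 31. Psmc1 in BAT turned to the opposite phase on TPM, at 0.125. The BAT dark over light count of 0 was 1 with no filter (1 lower, 0 higher), against 1.91% of all genes, and 0 without any 1 library. The count of rhythms that differed between depots, 16, was 26 with DESeq2, 36 with voom and 35 without the 3 libraries. The shares of all genes were 24.5%, 31.4% and 33.3%, in that order. Without 1 library that count was 6 to 31. Rhythmic ATAC regions numbered 4 to 7 in BAT and 0 to 3 in WAT without 1 library. With time as a factor there was 1 in WAT, against 19.3% of all WAT regions. Among BMAL1 peaks in the upper 50% of scores, 14 of 48 members had one, against 26.2% of the genes tested in WAT. With a WAT ATAC region at the promoter, 14 of 39 members and 38.2% of all genes had one. The causes were not tested.

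Same-numbered libraries at different times deviated together in 14 of 40 BAT pairs and 15 of 45 WAT pairs at a correlation over 0.1. Differently numbered libraries did so in 27 of 80 BAT pairs and 24 of 90 WAT pairs. Median correlations were 0.06 for same and -0.02 for different numbers in BAT, and 0.02 and -0.02 in WAT. These pairs lie within a depot, so they cannot show whether BAT and WAT libraries of the same time and number came from the same animal. With the replicate number as a block, the counts were 2 and 23 for rhythm in BAT and WAT, 40 for depot, 0 and 22 for dark over light in BAT and WAT, 15 for the difference of rhythms, and 5 and 2 for ATAC in BAT and WAT. With DESeq2 size factors the median dark over light difference of all genes in WAT was -0.14, against -0.10 with TMM.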
